A study of Rattus norvegicus with 80 samples.

Results

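The 4 arrays described here measured rat lung 3 days after instillation of CNF1, a preparation of cellulose nanofibrils, at 0 (vehicle), 0.5, 1.0 or 2.0 mg/kg. They were taken by their titles, which name CNF1, day 3 and the dose, and are 4 of the 80 arrays of a study of 3 cellulose nanofibril preparations (CNF1, CNF2, CNF3) and multi-walled carbon nanotubes (MWCNT) on 5 days, from day 1 to day 90. All groups were male Sprague-Dawley (Crl:CD[SD]) rats, bought at 7 weeks of age, that received 1 instillation into the trachea. The vehicle was distilled water with preservatives. Lungs were perfused with saline, and RNA came from the right lung. By the protocol each group had 4 rats a day, but only 1 array, whose label ended in replicate 4, and the labels did not say whether that array held 1 rat or a pool. The treatment protocol spoke of a dose of 1 mg/kg and gave suspensions in mg/mL, whereas the labels of the samples give the doses used here in mg/kg. With 1 array a dose, no dose has a spread of its own.

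Cellulose nanofibrils are thin, stiff fibres that mammalian enzymes do not break down. Particles that reach the alveoli are taken up by macrophages, which swell, fuse or divide, recruit monocytes and granulocytes through chemokines, and release proteases that act on the matrix. Injury of the thin alveolar type 1 cells and of airway club cells is a known companion of such a reaction, and club cells carry much of the cytochrome P450 of the lung.

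The deposited values are log2 values centred near 0 for each probe, so they compare arrays and hold no level. For that reason the presence of lung-defining markers could not be checked as a level, and differences below are log2 differences from the CNF1 day 3 vehicle array. In whole lung, more or fewer cells of a type and more or less RNA per cell cannot be told apart. The probes of a symbol were averaged, which gave 15925 genes. Dose slopes, in log2 per mg/kg, were tested in 1 limma model over 20 sets, each 1 material on 1 day, with Benjamini-Hochberg adjustment over all genes and a threshold of 0.05. The spread in that test is the scatter of arrays around the lines of all 20 sets, with 40 residual degrees of freedom.

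Control spots, which carry no rat sequence, did not lie flat over the 4 arrays. The 13 negative and RC spots averaged 1.02 on the vehicle array, -0.47 at 0.5, 0.53 at 1.0 and 0.15 at 2.0 mg/kg. The 2 least concentrated E1A spike-ins, RNAs added in known amounts during labelling, averaged -0.05 on the vehicle array, 1.13 at 0.5, 0.49 at 1.0 and -1.03 at 2.0 mg/kg. They were thus highest at 0.5 and lowest at 2.0 mg/kg. The 7 most concentrated E1A spike-ins averaged -0.21, 0.68, 2.00 and 0.66 in the same order, highest at 1.0 mg/kg. The order of the spike-ins by concentration is background knowledge of this kit and was not read from the files. Over all rat probes the array medians were 0.00, 0.14, 0.13 and -0.25, so centring each array on its median would move every difference at 2.0 mg/kg up by about 0.25. None of the 27 spike-in, eQC, negative and RC spots was called for slope by limma (0 also at an unadjusted p under 0.05), and 4 of all 91 control spots were (4 unadjusted). For each gene the correlation with the 2 lowest spike-ins over the other 76 arrays was computed, a measure chosen after the data had been seen. It was above 0.5 for 24.9% of all genes, and that share is given with the shapes below. What part these array shifts have in the results was not tested.

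**Figure D1:**
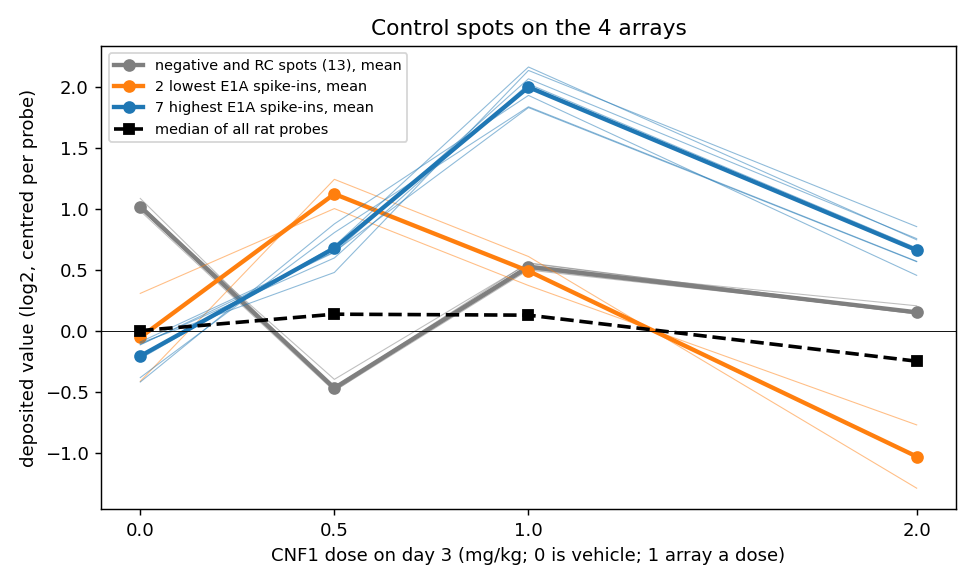
Deposited log2 values of 3 kinds of control spot on the 4 arrays, by CNF1 dose in mg/kg. Thin lines are single spots, thick lines their means, and the dashed line is the median of all rat probes. The negative spots are lowest at 0.5 mg/kg (-0.47), the 2 lowest spike-ins are highest there (1.13), and the 7 highest spike-ins peak at 1.0 mg/kg (2.00).

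The dose series had slopes in both directions over a wide set of genes. By limma at an adjusted p under 0.05, 2460 genes were called higher with dose (15.4% of 15925) and 1976 lower (12.4%). The other 19 sets gave between 0 and 996 calls in all, with 996 for CNF1 on day 1, 990 for CNF1 on day 7, 941 for CNF2 on day 3, 17 for CNF3 on day 3 and 0 for MWCNT on day 3 (667 there at an unadjusted p under 0.05). The number of calls rested on how the arrays were scaled. Quantile normalization, which by construction gives every array the same spread of values, left 124 of these 4436 calls (109 higher, 15 lower). The spread was not the same as deposited, since the SD over rat probes was 0.45, 0.42, 0.60 and 0.78 from vehicle to 2.0 mg/kg. The share of calls that were higher was 55.5% as deposited, 79.9% with arrays centred on their medians, 87.9% after quantile normalization and 40.4% over single probes. Without the vehicle array the model called 1485 genes higher and 1481 lower. With 3 factors of the control spots in the model, 4356 of the 4436 calls were kept. That model called more genes, 5960 in all, with 3388 higher and 2572 lower. The 2.0 mg/kg array lay above all 20 vehicle arrays of the study for 4632 genes (29.1%) and below all of them for 4521 (28.4%).

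Genes were then sorted by the shape of their response, with no test of the shape. A monotone rise had each dose above the one before and at least 2-fold (1.0 on the log2 scale) above vehicle at 2.0 mg/kg. This held for 894 genes (5.61%), against 62 to 312 in the other 19 sets, and 821 of them were called higher by slope. The mirror shape, a monotone fall, held for 767 genes (4.82%), against 10 to 455 elsewhere, and 550 were called lower. The 2.0 mg/kg value lay above all 20 vehicle arrays in 887 of the 894, against 29.1% of all genes. It lay below all of them in 585 of the 767, against 28.4% of all genes. The shape rules used the same 4 arrays, so these counts and the slope calls are largely fixed by the sorting and are no separate support. Just inside the threshold lay Rnf207 (1.0003) and Col4a2 (-1.0002), and just outside it Acads (0.998) and Or52a5 (-0.9996). Correlation above 0.5 with the 2 lowest spike-ins was found in 7.83% of the monotone rises and 17.3% of the monotone falls. Changes seen only at 2.0 mg/kg, with both lower doses within 0.5 of vehicle, were higher in 75 genes (0.471%) and lower in 389 (2.44%). Of these 37 and 86 also met the monotone rule. A change of at least 2-fold at every dose was present in 570 genes (3.58%), 505 higher and 65 lower, of which 34.1% and 3.08% correlated above 0.5 with those spike-ins. In the other 19 sets this shape held for 67 to 712 genes, more than 570 in 2 of them. A change at 0.5 or 1.0 mg/kg that was gone at 2.0 mg/kg was found in 660 genes (4.14%), 586 of them higher. This shape was more frequent in 14 of the other 19 sets, whose median was 1220 genes, and those higher and lower only at 2.0 mg/kg were more frequent than here in 2 sets and in 0.

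**Figure D2:**
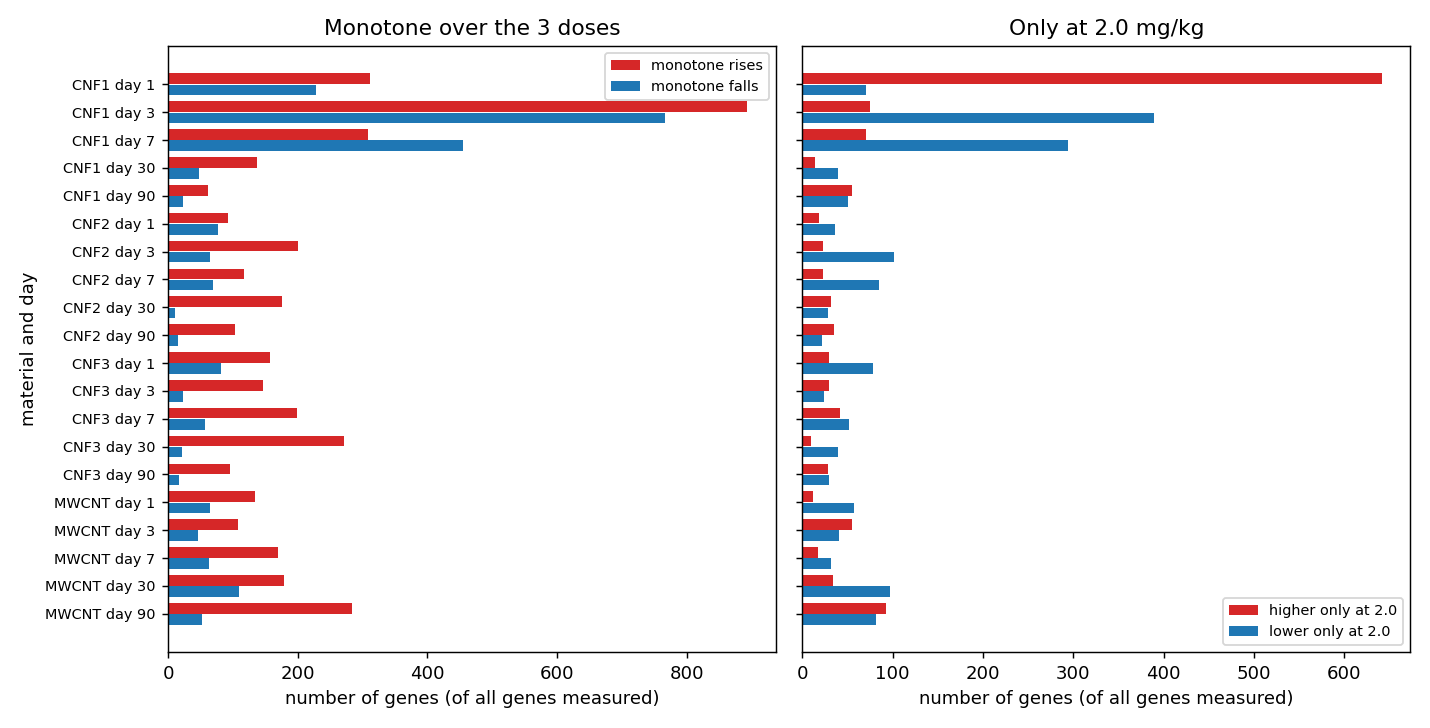
Number of genes, of 15925, with a monotone dose response (left) and with a change only at 2.0 mg/kg (right) in each of 20 sets, a set being 1 material on 1 day. Red bars count rises and blue bars falls. CNF1 day 3 has 894 monotone rises and 767 monotone falls, above every other set, whereas CNF1 day 1 has 641 genes higher only at 2.0 mg/kg against 75 on day 3.

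Rises and falls were spread differently over the dose range. Among monotone rises the largest of the 3 steps was the one from vehicle to 0.5 mg/kg in 438 genes, from 0.5 to 1.0 in 215 and from 1.0 to 2.0 in 241. The median rise had reached 39.6% of its log2 change at 0.5 mg/kg and 71.2% at 1.0 mg/kg. Among monotone falls the first step was the largest in 136 genes, the second in 312 and the last in 319, and the median fall had reached 22.6% and 62.8% of its change. These differences in step size run along with the array medians, which were higher at 0.5 and 1.0 mg/kg and lower at 2.0 mg/kg. The difference between the 2 directions was not tested.

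The vehicle array bears on every difference. Against the vehicle arrays of CNF2, CNF3 and MWCNT on the same day it was at least 2-fold apart in 1395 genes (8.76%), 596 (3.74%) and 1618 (10.2%), and in most of these it was the higher one (1350, 412 and 1496 genes). It was the highest of the 20 vehicle arrays in 201 of the 767 monotone falls (26.2%) and in 8.09% of all genes. It was the lowest of them in 143 of the 894 monotone rises (16%) and in 14.9% of all genes. At 2.0 mg/kg 735 of the monotone rises (82.2%) were at least 2-fold above each of the 4 day 3 vehicle arrays, against 6.46% of all genes. Of the monotone falls 428 (55.8%) were at least 2-fold below each, against 5.35% of all genes. The shape rule already required this distance from 1 of those 4 arrays, so these shares are in part fixed by it.

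The 12 largest monotone rises named here were led by genes of matrix proteolysis, macrophage activation and ion transport. Mmp7, the epithelial matrix protease matrilysin, stood at -2.91 on the vehicle array, 2.98 at 0.5, 4.60 at 1.0 and 5.81 at 2.0 mg/kg. Its slope was 3.90 ± 1.20 (SE) with an adjusted p of 0.0119 by limma, and the 20 vehicle arrays ran from -4.80 to -0.92, below all 3 exposed arrays. Mmp12, the macrophage elastase, stood at -3.68, 0.97, 2.16 and 3.67 in the same order (slope 3.32 ± 1.07, adjusted p 0.0167). Spp1, which encodes osteopontin, stood at -4.32, 0.46, 1.94 and 3.00 (slope 3.31 ± 0.97, adjusted p 0.00796). For each of these genes the first step, from vehicle to 0.5 mg/kg, was the largest, and all 3 exposed arrays lay above the 20 vehicle arrays. The iodide symporter gene Slc5a5 stood at -1.35, 3.99, 5.39 and 5.45, nearly level between 1.0 and 2.0 mg/kg (slope 2.97 ± 1.04, adjusted p 0.0289). Pendrin, the anion exchanger encoded by Slc26a4, stood at -2.81, 1.30, 2.57 and 3.43 (slope 2.81 ± 0.79, adjusted p 0.00554).

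Other large rises climbed at each dose. Slc13a3, a sodium-coupled dicarboxylate transporter, stood at -2.18, 1.35, 4.08 and 5.53 (slope 3.72 ± 0.73, adjusted p 0.000149). Acod1, the enzyme by which activated macrophages make itaconate, stood at -0.34, 2.79, 4.19 and 6.49 (slope 3.24 ± 0.76, adjusted p 0.00119). Il24, a cytokine of the IL-10 family, stood at -0.94, 1.59, 4.01 and 5.38 (slope 3.1 ± 0.58, adjusted p 7.04e-05). All 3 lay above the 20 vehicle arrays at every exposed dose. Slc7a11, the cystine importer that feeds glutathione synthesis, stood at -1.08, 2.31, 4.17 and 5.16 (slope 2.93 ± 0.84, adjusted p 0.00715). Ctsk, the collagen-degrading cathepsin K, stood at -1.90, 0.71, 2.73 and 3.73 (slope 2.71 ± 0.67, adjusted p 0.00191). The last step was the largest in Orm1, an acute phase glycoprotein, with -1.22, 0.76, 2.31 and 5.46 (slope 3.30 ± 0.54, adjusted p 9.45e-06), and in Mmp9, a gelatinase of granulocytes and macrophages, with -0.57, 0.99, 2.89 and 5.32 (slope 2.96 ± 0.45, adjusted p 3.6e-06). At 0.5 mg/kg Orm1 (0.76) was still inside the range of the vehicle arrays, whose highest value was 0.78. Under quantile normalization 1 of the 12 kept its call (Orm1), and without the vehicle array 3 did (Il24, Mmp9 and Orm1). Mmp12 alone lost its call without the 2.0 mg/kg array.

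The promoters of these genes are shown where a stretch of 300 bases held a motif that had been searched for, so that the letters counted below can be seen in their setting. Sequences are those of RefSeq on the GRCr8 build, from 250 bases before to 50 bases after the annotated start, 5′ to 3′ on the gene's strand. Capitals mark the matched letters, found on either strand: TGANTCA for AP-1, which binds Fos and Jun family dimers, or TGACNNNGC for the antioxidant response element. The letters searched for kappaB, the site of NF-kappaB, had no match in any of the 4. Mmp7 lies at chr8:13132793-13133092 on the + strand, Mmp12 at chr8:12866402-12866701 (+), Orm1 at chr5:81788259-81788558 (+) and Slc13a3 at chr3:174623844-174624143 on the - strand.
Mmp7: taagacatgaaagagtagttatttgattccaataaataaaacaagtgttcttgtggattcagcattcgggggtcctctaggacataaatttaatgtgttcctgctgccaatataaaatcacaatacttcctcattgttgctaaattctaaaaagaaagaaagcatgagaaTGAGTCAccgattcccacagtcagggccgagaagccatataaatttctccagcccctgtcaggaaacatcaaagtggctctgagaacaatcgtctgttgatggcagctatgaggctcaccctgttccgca
Mmp12: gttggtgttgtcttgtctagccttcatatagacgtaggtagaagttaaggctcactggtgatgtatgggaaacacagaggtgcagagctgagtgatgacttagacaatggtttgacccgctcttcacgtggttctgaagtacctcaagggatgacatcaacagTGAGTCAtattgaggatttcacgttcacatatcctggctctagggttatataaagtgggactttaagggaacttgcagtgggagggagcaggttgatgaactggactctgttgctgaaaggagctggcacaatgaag
Orm1: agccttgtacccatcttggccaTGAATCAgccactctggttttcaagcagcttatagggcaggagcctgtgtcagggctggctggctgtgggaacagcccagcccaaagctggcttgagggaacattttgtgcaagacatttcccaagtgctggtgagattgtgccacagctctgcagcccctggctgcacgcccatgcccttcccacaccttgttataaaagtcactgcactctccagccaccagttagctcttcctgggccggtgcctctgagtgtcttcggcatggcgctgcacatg
Slc13a3: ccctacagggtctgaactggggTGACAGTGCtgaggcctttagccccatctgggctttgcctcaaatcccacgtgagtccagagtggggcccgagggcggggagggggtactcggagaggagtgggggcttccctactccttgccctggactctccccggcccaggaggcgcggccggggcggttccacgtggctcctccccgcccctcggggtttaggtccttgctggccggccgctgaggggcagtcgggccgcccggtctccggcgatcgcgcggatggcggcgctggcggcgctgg
In Mmp7 and Mmp12 the letters TGAGTCA lay at -80 to -74 and at -87 to -81 from the start. Of the other 8 named rises, 7 had a promoter sequence, and it held none of the 3 motifs. Among the 8 largest monotone falls, described below, Or12j3 and Pdzd7 also held a match, and their promoters are not printed. Or12j3 held the AP-1 letters TGAATCA at 10 to 16 from the start. Pdzd7 held the antioxidant response letters TGACATTGC at -90 to -82. Over the monotone rises called higher, 677 of 821 had a promoter, and 8.86% of these held the AP-1 letters, against 5.53% of 434 promoters of called falls, 6.12% of all genes measured and 7.33% of all 27457 promoters. The antioxidant response letters were in 115 of 677, 49 of 434, 1786 of 13146 and 3342 of 27457 of the same promoters, and the kappaB letters in 0.886%, 0, 0.449% and 0.372%. These shares were not tested, and a match is a run of letters and not a binding site.

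The 8 largest monotone falls fell into 2 kinds by where the fall took place. Cyp2a3, a cytochrome P450 of the rat airway, stood at 0.15 on the vehicle array, -1.03 at 0.5, -2.95 at 1.0 and -4.18 at 2.0 mg/kg (slope -2.20 ± 0.27, adjusted p 9.15e-08 by limma). Tac1, the precursor of the sensory neuropeptide substance P, stood at 0.50, -1.31, -2.94 and -3.64 (slope -2.01 ± 0.34, adjusted p 1.81e-05). In both genes, as in the next 2, all 3 exposed arrays lay below the 20 vehicle arrays. Serpinb10, a serine protease inhibitor gene, stood at 0.51, -1.17, -2.84 and -3.49 (slope -1.96 ± 0.31, adjusted p 7.62e-06). Tex36 stood at 0.87, -0.17, -1.87 and -3.17 (slope -2.06 ± 0.25, adjusted p 1.18e-07).

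The other 4 fell mostly between 1.0 and 2.0 mg/kg, from a vehicle array that was itself the highest of the 20. Ervfrd-1, an endogenous retroviral envelope gene, stood at 1.65, 0.98, 0.21 and -3.83 (slope -2.79 ± 0.82, adjusted p 0.00833). Or12j3, an olfactory receptor gene, stood at 1.36, 0.57, -0.03 and -2.69 (slope -2.03 ± 0.54, adjusted p 0.00387). Pdzd7 (1.39, 0.73, 0.09 and -2.64) and Vwa5b1 (1.28, 0.72, 0.27 and -2.66) followed the same course, with adjusted p-values of 0.00796 and 0.00515. At 0.5 and 1.0 mg/kg all 4 genes were within the range of the vehicle arrays, and at 2.0 mg/kg they were below it. Without the 2.0 mg/kg array these 4 lost their calls, and under quantile normalization all 8 falls did.

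**Figure D3:**
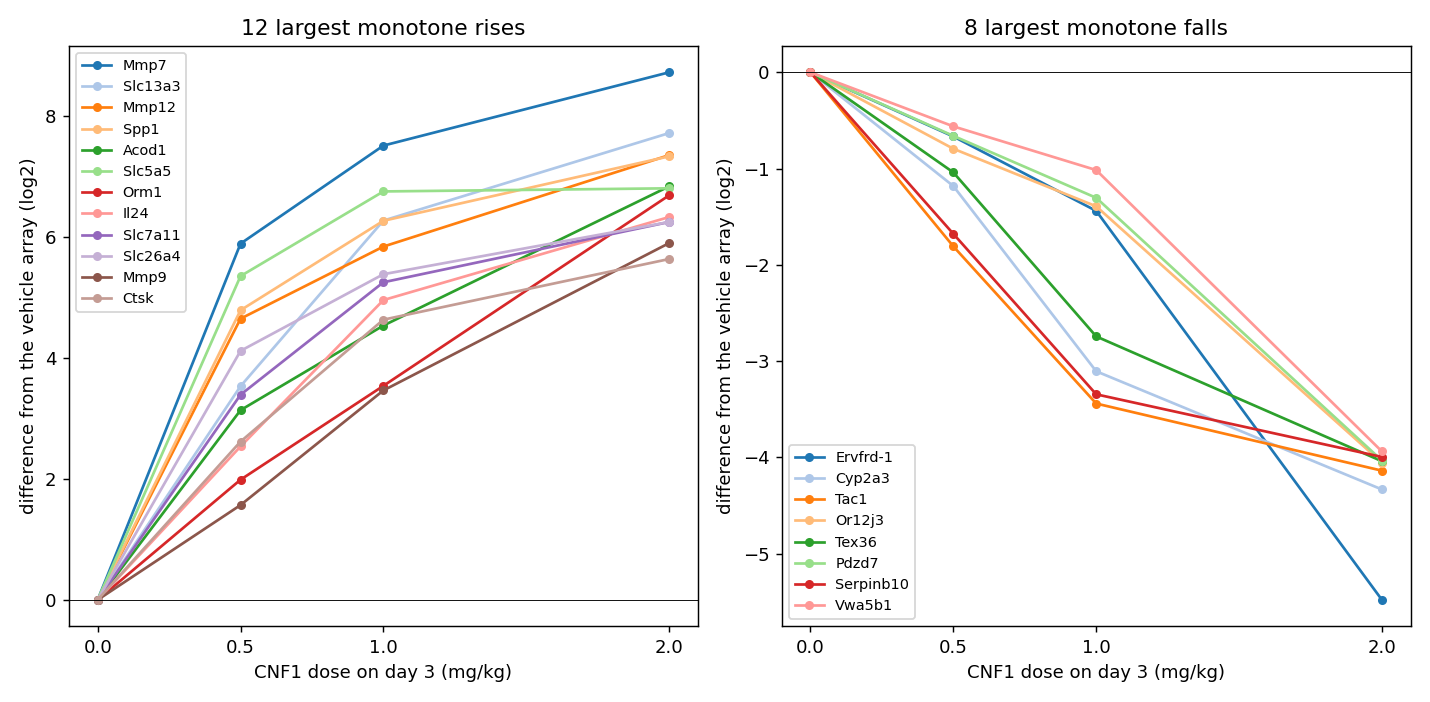
Log2 difference from the CNF1 day 3 vehicle array by dose in mg/kg, for the 12 largest monotone rises (left) and the 8 largest monotone falls (right), 1 array a dose. Mmp7 reaches 5.89 at 0.5 and 8.72 at 2.0 mg/kg. Cyp2a3, Tac1, Serpinb10 and Tex36 are down at each dose, whereas Ervfrd-1, Or12j3, Pdzd7 and Vwa5b1 drop mainly between 1.0 and 2.0 mg/kg.

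Genes higher only at 2.0 mg/kg were few, and the changes were smaller than those of the monotone rises. Tfpi2, a Kunitz-type protease inhibitor, stood at -0.01, 0.39, 0.41 and 1.94 (slope 0.95 ± 0.21, adjusted p 0.000657). Gjb2, the gap junction protein connexin 26, stood at 0.18, 0.07, 0.57 and 2.05 (slope 1.00 ± 0.14, adjusted p 1.21e-06). Slc11a1, the metal transporter NRAMP1 of the phagosome, stood at -0.50, -0.28, -0.03 and 1.07 (slope 0.80 ± 0.21, adjusted p 0.00311). In all 3 genes both lower doses were within 0.5 of the vehicle array, and Tfpi2 and Slc11a1 also met the monotone rule. However, Tfpi2 lay above the 20 vehicle arrays at each exposed dose, and Gjb2 did so at 1.0 mg/kg too. Gpr83, a G protein-coupled receptor, Cthrc1, a secreted collagen triple helix protein, and Gucy2g, a guanylate cyclase, were 1.89, 1.59 and 1.53 above vehicle at 2.0 mg/kg, with adjusted p-values of 0.034, 6.39e-05 and 0.00821. Cthrc1 was above all 20 vehicle arrays at each exposed dose, and Gpr83 at 1.0 mg/kg too. Each of the 6 was above them at 2.0 mg/kg. All 6 lost their calls under quantile normalization, and each lost its call without the 2.0 mg/kg array. Gpr83 and Gucy2g lost it without the vehicle array too, and Gpr83 without the 0.5 mg/kg array. Of the 75 such genes, 2.67% correlated above 0.5 with the 2 lowest spike-ins.

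Among the 389 genes lower only at 2.0 mg/kg that share was 44.2%, against 24.9% of all genes, and 169 of the 389 were called lower by slope. The 2 largest falls were in chemosensory receptor genes. The olfactory receptor gene Or1e27b stood at 0.85, 1.06, 0.40 and -3.92, and its slope was not called (-2.52 ± 0.98, adjusted p 0.0511). The bitter taste receptor gene Tas2r118 stood at 0.85, 0.89, 0.41 and -3.90 (slope -2.47 ± 0.74, adjusted p 0.00942). The olfactory receptor gene Or6c76b stood at -0.01, 0.30, -0.23 and -2.51 (slope -1.35 ± 0.30, adjusted p 0.000623). Alb, which encodes albumin and was read by 3 probes, stood at -0.41, -0.14, -0.30 and -3.13, with a slope that was not called (adjusted p 0.065) and vehicle arrays spread from -1.58 to 2.91. All 4 were below the 20 vehicle arrays at 2.0 mg/kg. Their own correlations with the 2 lowest spike-ins were all under 0.5. They were 0.21 for Or1e27b, 0.24 for Tas2r118, 0.38 for Or6c76b and -0.17 for Alb.

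Genes past 2-fold at all 3 doses included, besides Mmp7, Slc5a5, Spp1, Mmp12 and Slc26a4, the ribonuclease gene Rnase1l2. It stood at -1.04, 3.53, 4.05 and 3.60, flat over the exposed doses, so that its slope was not called (1.90 ± 0.84, adjusted p 0.0908). The 2 most negative at 0.5 mg/kg were Pp2d1 (3.65, 0.39, 0.86 and 0.12) and Myot, a sarcomere protein gene (1.58, -0.72, 0.03 and -0.18). In both the 2.0 mg/kg value was within the range of the vehicle arrays, the vehicle array was high (for Pp2d1 the highest of the 20), and the slope was not called (adjusted p 0.0699 and 0.362).

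Of the 586 genes higher only at a middle dose 72.4% correlated above 0.5 with the lowest spike-ins, against 6.76% of the 74 lower ones. The 2 largest were single-array values at 1.0 mg/kg. Or8c10b, an olfactory receptor gene, stood at -0.25, -0.10, 4.04 and -0.08, and Flacc1 at 0.06, 0.10, 4.02 and -0.27. The third, the receptor gene Mrgprg, stood at -0.34, 2.37, 0.52 and -0.81. The correlation with the lowest spike-ins was -0.20 for Or8c10b, 0.26 for Flacc1 and 0.54 for Mrgprg. Lower at a middle dose were Olfm4, a granule protein of neutrophils and crypt cells (1.06, -1.12, -0.22 and 0.69), Mx2, an interferon-induced GTPase (0.68, 0.52, -1.004 and 0.81), and Pex7, a peroxisomal import receptor (0.23, -0.21, -1.44 and -0.13).

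**Figure D4:**
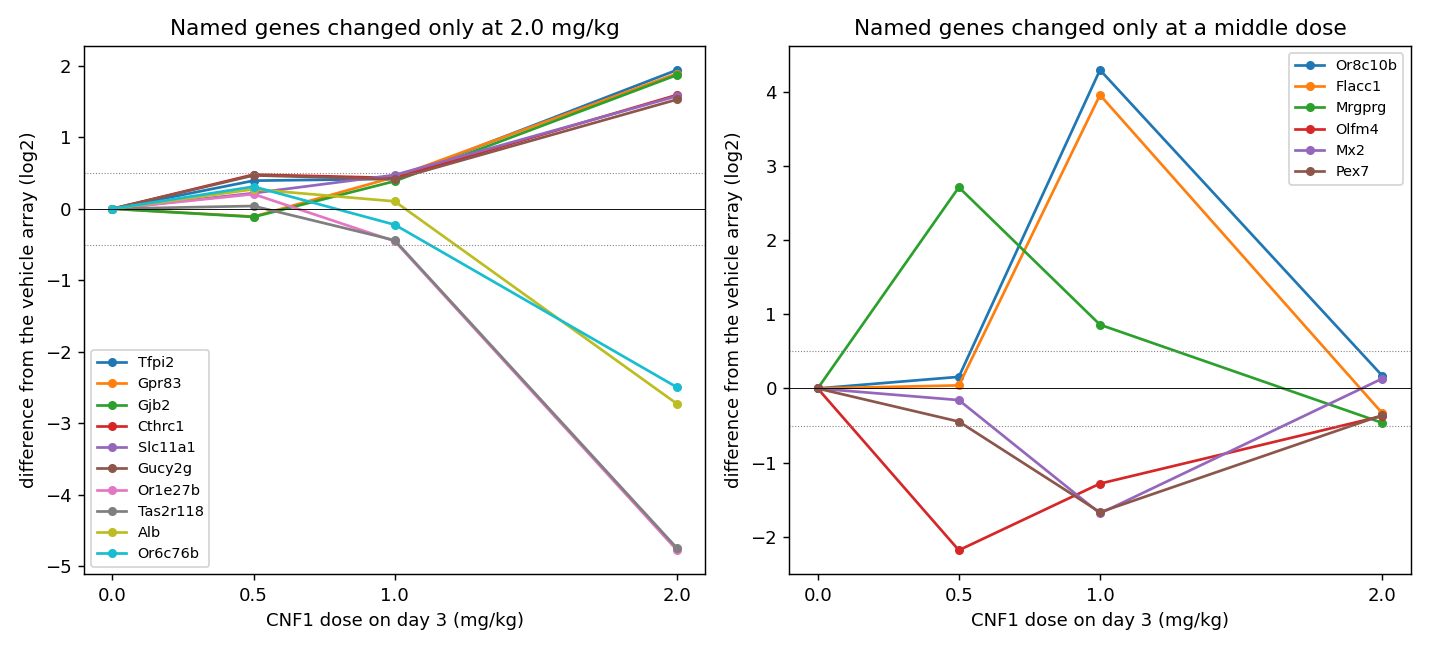
Log2 difference from the CNF1 day 3 vehicle array by dose in mg/kg, for named genes changed only at 2.0 mg/kg (left) and named genes changed only at a middle dose (right), 1 array a dose. Dotted lines mark 0.5 on either side of 0. Tas2r118 and Or1e27b drop to -4.75 and -4.77 at 2.0 mg/kg, and Or8c10b and Flacc1 peak at 4.29 and 3.96 at 1.0 mg/kg.

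Bending of the response was tested as a quadratic dose term of this set beyond the one common to the 20 sets. By limma 256 genes were called (1.61%), and 2 after quantile normalization. Flacc1, high on a single array, had the smallest p (adjusted p 0.00259), and next came Smad4, Snx1, Hes7 and Myct1, each with an adjusted p of 0.00947. Smad4, the common mediator of TGF-beta signalling, stood at 0.19, -0.26, -0.82 and -0.20, and the sorting nexin gene Snx1 at 0.17, -0.19, -0.37 and 0.37. Both were lowest at 1.0 mg/kg. Hes7, a transcriptional repressor gene, stood at -0.45, 0.06, 1.69 and 0.45, highest at 1.0 mg/kg. The endothelial gene Myct1 stood at -0.74, -0.11, -0.42 and -2.23, below the 20 vehicle arrays at 2.0 mg/kg alone. Its slope of -0.86 ± 0.16 turned to 0.32 without the 2.0 mg/kg array. The CNF1 day 3 vehicle array was itself the lowest of the 20 for Myct1 and Hes7 and the highest for Snx1.

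The 35 gene lists below were compared with all genes, which had medians of 0.16, 0.06 and -0.12 at the 3 doses and were called higher in 15.4% and lower in 12.4%. No list was tested, and the lists were chosen with earlier results of these data known. Of the genes listed for macrophages laden with particles or lipid, 16 of 18 measured were called higher and none lower. That list had a median of 0.60, 1.69 and 2.78, and it holds Spp1, Mmp12, Slc13a3, Acod1 and Ctsk of the largest rises above. Its 14 monotone members include Gpnmb, a lysosomal glycoprotein, at -1.36, -0.39, 0.76 and 1.86 (slope 1.61 ± 0.38, adjusted p 0.00129). Trem2, a lipid-sensing receptor, stood at -1.49, -0.02, 1.49 and 1.86 (slope 1.64 ± 0.51, adjusted p 0.0132). Dcstamp, needed for the fusion of macrophages into giant cells, stood at -1.06, -0.42, 0.66 and 2.11 (slope 1.62 ± 0.25, adjusted p 5.59e-06). In these genes each dose stood above the one before. Lpl and Acp5 were not called. Of 16 lysosomal genes 10 were called higher and none lower, with a median of 1.09 at 2.0 mg/kg; the protease gene Ctss stood at -0.28, -0.11, 0.69 and 1.35 (slope 0.87 ± 0.17, adjusted p 0.000171).

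Markers of monocytes and macrophages at large were less uniform, with 8 of 14 called higher and 1 lower. The integrin gene Itgam stood at -2.05, 0.52, 1.32 and 2.82 (slope 2.26 ± 0.51, adjusted p 0.000678), and Cd14, a co-receptor for lipopolysaccharide, at -0.69, -0.17, -0.11 and 1.11 (slope 0.87 ± 0.18, adjusted p 0.000262). Adgre1, the F4/80 antigen, stood at 0.44, -0.26, -0.88 and -0.46 and was called lower (slope -0.42 ± 0.15, adjusted p 0.0303). The scavenger receptor gene Cd163 was called higher (slope 1.18 ± 0.43, adjusted p 0.0354) but correlated 0.56 with the 2 lowest spike-ins.

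Among 13 CC chemokine genes 9 were called higher and 2 lower, and the median was 2.29, 2.14 and 3.33, so that most of the change was present at 0.5 mg/kg. Ccl12, a monocyte attractant, stood at -0.47, 2.01, 2.56 and 4.39 (slope 2.25 ± 0.43, adjusted p 9.93e-05). Ccl17 and Ccl22, ligands of the T cell receptor CCR4, stood at -0.89, 2.69, 3.30 and 4.20 and at -1.23, 2.33, 3.03 and 3.56, with adjusted p-values of 0.00521 and 0.0053. Ccl24, an eosinophil attractant, stood at -1.03, 1.51, 2.39 and 3.93 (slope 2.31 ± 0.51, adjusted p 0.000584). All 4 lay above the 20 vehicle arrays at every exposed dose. Ccl5, which attracts T cells, stood at 0.53, -0.23, -1.27 and -1.02 and was called lower (slope -0.77 ± 0.18, adjusted p 0.000932), as was Ccl6. The calls among 11 CXC chemokine genes were 3, near the 27.9% of all genes called in either direction. Cxcl10 and Cxcl11 were higher and Cxcl14 lower. Of 19 inflammatory cytokine and receptor genes 4 were called, all higher; Il1rn, the antagonist of the IL-1 receptor, stood at -1.47, 0.29, 1.70 and 2.73 (slope 2.04 ± 0.34, adjusted p 1.31e-05). Il1b, Tnf and Il6 differed by 0.55, 1.14 and 2.66 from vehicle at 2.0 mg/kg and were not called. With 3 factors of the control spots in the fit 11 of the 19 were called, all higher, Tnf and Il6 among them (adjusted p 0.00764 and 0.00138 by limma). Over all 15925 genes that fit called 3388 higher, against 2460 in the main model.

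Type 2 effector genes were called higher in 7 of 12 and lower in 1. Arg1, the arginase of alternatively activated macrophages, stood at -0.69, -0.21, 1.11 and 2.15 (slope 1.48 ± 0.18, adjusted p 5.63e-08). Retnla, a secreted marker of the same state in rodents, stood at -2.64, 0.98, 1.75 and 2.30 (slope 2.17 ± 0.60, adjusted p 0.00543). Arg1 was near the vehicle arrays at 0.5 mg/kg, whereas Retnla had most of its change there. Alox15 was called lower. The cytokine genes Il4, Il5 and Il13 were 1.13, 2.67 and 1.19 above vehicle at 2.0 mg/kg without a call, and each correlated above 0.5 with the lowest spike-ins. With 3 factors of the control spots in the fit all 3 were called higher (adjusted p 0.00709, 3.77e-05 and 0.0114 by limma), as were 3388 of all 15925 genes. Neutrophil markers gave 2 higher (Mmp9 and Lcn2) and 2 lower (Mmp8 and S100a8) of 14, and eosinophil and mast cell markers 2 higher and 1 lower of 13. Lcn2, an iron-binding protein of neutrophils and injured epithelium, stood at -1.62, 1.13, 1.98 and 2.93 (slope 2.07 ± 0.74, adjusted p 0.0321), while the granule collagenase gene Mmp8 stood at 0.52, 0.14, -1.77 and -1.85 (slope -1.28 ± 0.27, adjusted p 0.000262). The neutrophil median at 2.0 mg/kg was -0.35 and turned to 0.02 under quantile normalization.

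Cell cycle genes were called higher in 20 of 25, none lower, and their median climbed from 1.07 to 1.52 and 2.00. Birc5, which encodes survivin, stood at -0.23, 0.72, 2.23 and 2.67 (slope 1.47 ± 0.18, adjusted p 1.33e-07), and the mitotic kinase gene Plk1 at -0.26, 0.78, 1.69 and 2.42 (slope 1.31 ± 0.17, adjusted p 2.35e-07). Mki67, the proliferation antigen, stood at -0.08, 1.00, 1.54 and 2.07 (slope 1.01 ± 0.23, adjusted p 0.000793). At 0.5 mg/kg all 3 already lay above the 20 vehicle arrays. Of the 5 not called, Bub1b, Nusap1 and Kif11 were 1.60, 1.70 and 2.15 above vehicle at 2.0 mg/kg and correlated above 0.5 with the lowest spike-ins, and Mcm2 and Aurkb stood 0.91 above and 0.50 below.

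Matrix proteases and their inhibitors were called higher in 8 of 16 and lower in 1. The inhibitor gene Timp1 stood at -0.16, 0.51, 1.03 and 2.17 (slope 1.15 ± 0.22, adjusted p 8.83e-05). Of 18 extracellular matrix genes 5 were called, all higher, namely Vcan, Tgfb1, Fn1, Tnc and Loxl2; the median at 2.0 mg/kg was 0.23 and turned to -0.01 under quantile normalization. The fibrillar collagen genes Col1a1 and Col3a1 differed by 0.24 and 0.33 from vehicle at 2.0 mg/kg and were not called. Tgfb1, a cytokine that drives matrix synthesis, stood at -0.12, 0.36, 0.83 and 1.48 (slope 0.79 ± 0.19, adjusted p 0.00109).

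The counts of stress and defence lists are set against all genes, of which 15.4% were called higher and 12.4% lower. Of 11 genes under NRF2, a transcription factor of the response to oxidants, 6 were called higher and 1 lower. Hmox1, heme oxygenase 1, stood at -0.66, -0.30, 0.43 and 1.40 (slope 1.06 ± 0.20, adjusted p 9.94e-05), while Gclc, Gclm, Srxn1 and Osgin1 were not called. Of 11 metallothionein and iron genes 6 were called higher and none lower. Of 7 genes for oxidant production at airway surfaces 4 were called higher; Duox2, an oxidase that makes hydrogen peroxide, stood at 0.17, 1.34, 2.86 and 4.57 (slope 2.21 ± 0.41, adjusted p 6.58e-05). Complement and acute phase genes were called higher in 9 of 18, none lower, with the central component gene C3 at -0.51, 0.89, 1.17 and 2.06 (slope 1.18 ± 0.37, adjusted p 0.0128). Interferon response genes gave 2 calls of 16, both higher, and a median that was 0.80 at 2.0 mg/kg but negative at 1.0 mg/kg. The calls were 7 with control spot factors in the fit and 5 with arrays centred on their medians, all higher. Over all 15925 genes those settings called 3388 and 3763 higher. Isg15, a ubiquitin-like protein induced by interferon, stood at 0.72, 0.81, 0.09 and 1.96, and its slope of 0.59 ± 0.22 (adjusted p 0.0369) turned to -0.63 without the 2.0 mg/kg array. Immediate early genes were called higher in 5 of 13 and lower in 1. Fosl1, a member of the AP-1 family, stood at -1.01, 0.70, 1.47 and 2.86 (slope 1.84 ± 0.28, adjusted p 3.58e-06), whereas Fos, Jun and Egr1 differed by -0.04, -0.69 and 0.18 from vehicle at 2.0 mg/kg and were not called. Epithelial injury genes were called higher in 3 of 12 and lower in 1, with the growth factor gene Areg at -0.54, -0.03, 0.75 and 1.86 (slope 1.22 ± 0.22, adjusted p 4.15e-05). MHC class II genes were called higher in 1 of 8, cholesterol synthesis genes in 4 of 11, and glucocorticoid-induced genes in 2 of 10 with 1 lower. The interferon, MHC class II and glucocorticoid counts were near the shares of all genes.

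Xenobiotic enzymes were called lower in 9 of 11, none higher, with a median of -0.55, -1.90 and -2.19. Fmo2, the flavin monooxygenase of rodent lung, stood at 0.03, -0.90, -1.88 and -3.09 (slope -1.55 ± 0.19, adjusted p 7.06e-08). Cyp2e1 stood at 0.58, -0.71, -1.84 and -2.68 (slope -1.60 ± 0.25, adjusted p 5.59e-06). Both were below the 20 vehicle arrays at all 3 exposed doses. Cyp1a1 and Cyp1b1, enzymes induced through the aryl hydrocarbon receptor, were not called. Of 10 club and goblet cell markers 4 were called lower and 1 higher. Scgb1a1, the club cell secretoglobin, stood at 0.05, -0.29, -0.69 and -1.13 (slope -0.59 ± 0.11, adjusted p 4.08e-05), while the goblet cell factor gene Spdef was called higher and the mucin genes Muc5ac and Muc5b, 1.43 and 0.67 above vehicle at 2.0 mg/kg, were not called. Ciliated cell markers were called lower in 5 of 8, but their master regulator Foxj1 differed by -0.01 from vehicle at 2.0 mg/kg and was not called.

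Alveolar type 1 markers were called lower in 7 of 9, none higher, with a median of -0.42, -0.67 and -1.02. Ager, the receptor RAGE, stood at 0.22, -0.32, -0.89 and -1.26 (slope -0.73 ± 0.14, adjusted p 0.000129), and the water channel gene Aqp5 at 0.32, -0.27, -0.87 and -1.09 (slope -0.69 ± 0.15, adjusted p 0.000474). Both were below the 20 vehicle arrays at every exposed dose. Alveolar type 2 markers were called higher in 2 of 12, Sftpd and Napsa, and none lower; Sftpc, the surfactant protein C gene, stood at 0.12, 0.20, 1.34 and 0.17. Endothelial markers were called lower in 10 of 16, none higher, and unlike the type 1 markers had a median near 0 at 0.5 mg/kg, 0.01 against -0.42, a difference that was not tested. Plvap, a component of capillary fenestrae, stood at -0.13, -0.15, -1.40 and -1.97 (slope -1.02 ± 0.16, adjusted p 6.55e-06). Smooth muscle and fibroblast markers gave 1 call in each direction of 8.

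**Figure D5:**
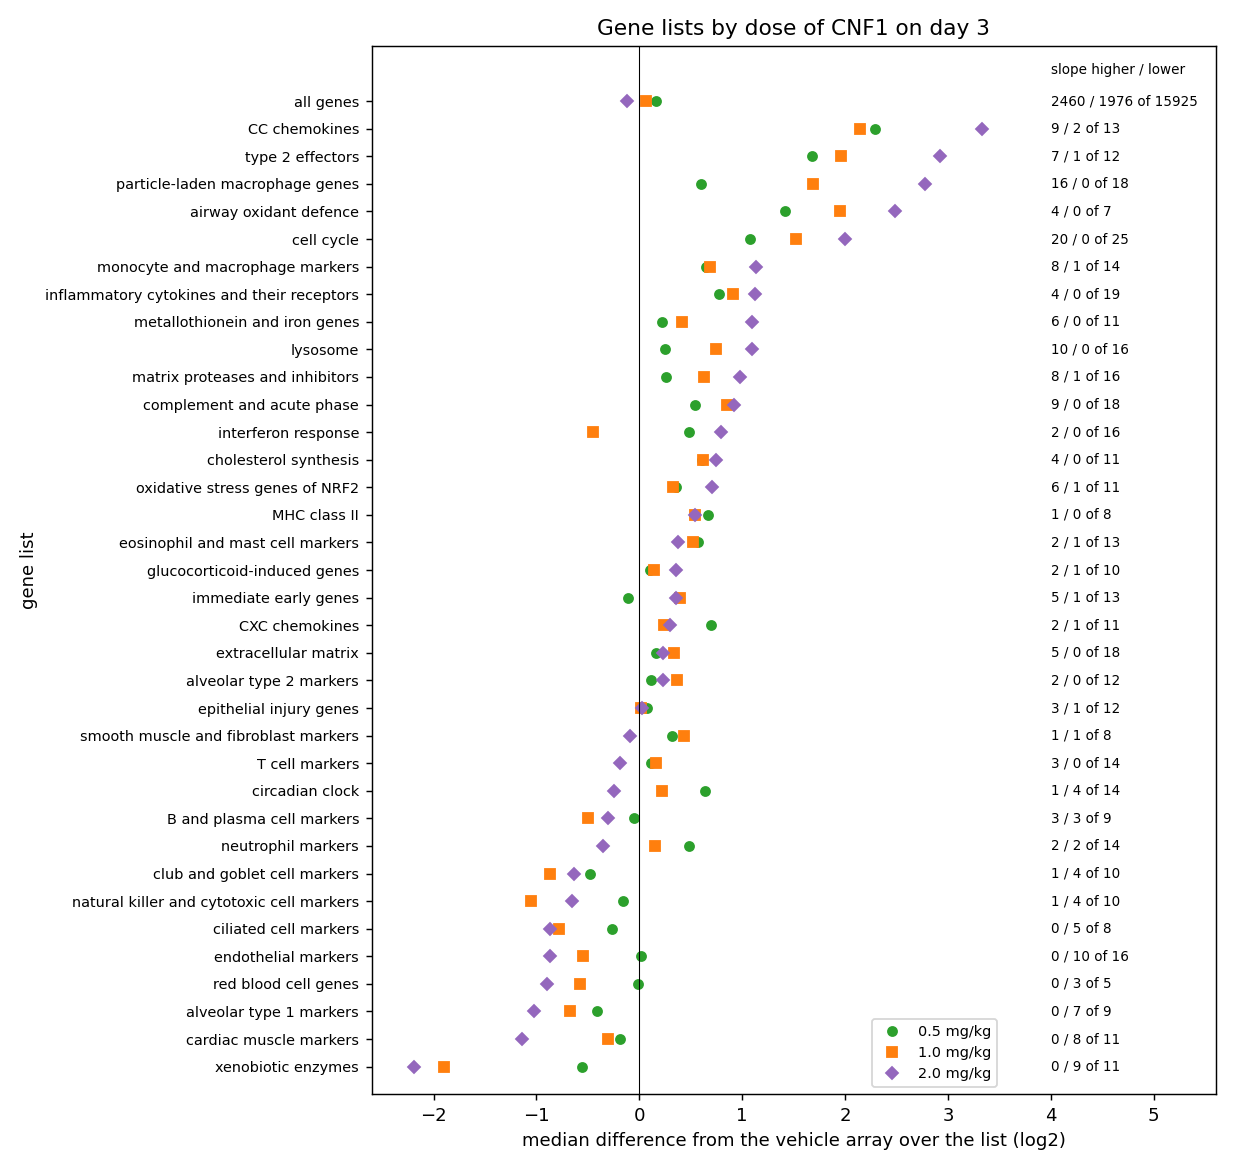
Median log2 difference from the CNF1 day 3 vehicle array over each of 35 gene lists and over all genes, at each of the 3 exposed doses in mg/kg. The right column gives how many of the measured members were called higher and lower by slope. Particle-laden macrophage genes (16 of 18 higher) and cell cycle genes (20 of 25 higher) lie to the right, and xenobiotic enzymes (9 of 11 lower) and alveolar type 1 markers (7 of 9 lower) to the left.

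Of 10 natural killer and cytotoxic markers 4 were called lower and 1 higher, and their median was -0.15, -1.05 and -0.66, with the receptor gene Ncr1 at 0.18, 0.04, -1.20 and -1.72 (slope -1.03 ± 0.17, adjusted p 1.68e-05). T cell markers gave 3 higher calls of 14 (Il7r, Icos and Cd8b), with Cd3d, Cd3e and Cd3g within 0.2 of vehicle at 2.0 mg/kg. B and plasma cell markers gave 3 calls in each direction of 9. Clock genes were called lower in 4 of 14 and higher in 1. The medians of the T cell, clock and smooth muscle lists at 2.0 mg/kg were -0.19, -0.24 and -0.09, and each turned above 0 with arrays centred on their medians.

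Tissue carried along with the lung moved with dose too. Of 11 markers of cardiac muscle, which sheathes pulmonary veins in rodents, 8 were called lower and none higher, with medians of -0.18, -0.30 and -1.14. Sln, which encodes sarcolipin, stood at 0.16, -0.10, -0.52 and -1.44 (slope -0.82 ± 0.13, adjusted p 9.3e-06). Of 5 red blood cell genes 3 were called lower, with Hbb, a beta globin gene, at 0.43, 0.40, -1.02 and -2.27 (slope -1.46 ± 0.20, adjusted p 8.99e-07). The medians of both lists were lowest at 2.0 mg/kg, as were those of the endothelial, type 1 and xenobiotic lists. The lower doses differed. At 0.5 mg/kg the cardiac and red cell medians were -0.18 and -0.01, against 0.01, -0.42 and -0.55 in those lists. At 1.0 mg/kg they were -0.30 and -0.58, against -0.55, -0.67 and -1.90. What part the cardiac and red cell markers have in those falls was not tested. With arrays centred on their medians the lower calls were 4 of 11 cardiac, 1 of 5 red cell, 4 of 9 type 1, 6 of 16 endothelial and 8 of 11 xenobiotic genes. Over all 15925 genes that scaling called 945 lower, against 1976 as deposited. Under quantile normalization no list kept more than 1 call, and the 2.0 mg/kg medians of the macrophage, cell cycle, type 1 and xenobiotic lists were 1.90, 1.11, -0.52 and -1.22.

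Slopes on day 3 were set against those of the same material on the days before and after, and of the other cellulose preparations on day 3. The CNF1 day 3 arrays enter all 3 differences, so these are not independent of one another. The slope differed from that of CNF1 on day 1 in 576 genes (3.62%), from that of CNF1 on day 7 in 60 (0.377%), and from the mean of CNF2 and CNF3 on day 3 in 220 (1.38%), by limma. Under quantile normalization all 3 counts were 0 (567, 102 and 271 genes at an unadjusted p under 0.05), and with the CNF1 sets alone the differences from day 1 and day 7 were called in 1 and 2 genes. Slc1a6, a glutamate transporter gene, stood at 0.69, 0.73, 3.55 and 5.98 on day 3, at -0.33, -1.10, -0.15 and 1.08 on day 1, and at 0.93, -0.21, -0.25 and 0.27 on day 7. It was thus high on the 1.0 and 2.0 mg/kg arrays of day 3, and its slope differed from both days (adjusted p 0.0494 and 0.0123). Its value on the 2.0 mg/kg array of CNF2 on day 3 was 3.36. Orm1 stood at -0.40, -0.11, 0.03 and -2.06 on day 7, opposite to its course on day 3 (difference 4.18 ± 0.76, adjusted p 0.00655). Hpx, the heme scavenger hemopexin, stood at -0.10, -0.17, 0.50 and 2.42 on day 3 with CNF1, and at 0.11 and -0.25 on the 2.0 mg/kg arrays of CNF2 and CNF3 (difference 1.33 ± 0.19, adjusted p 0.000101).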

How the data were processed

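Lung RNA was measured on 1-colour (Cy3) Agilent rat arrays, 1 for each of 80 groups. The submitters' processing notes name Agilent Feature Extraction 12.0.3.1, and the authors deposited log2 values, normalized and centred on each probe. The base 2 and the centring are taken from the values, since the normalization is not given in the sources used here. Signal levels and detection calls were not used here, so depth cannot be given, and 1 array a dose limits the precision (median SE of a slope 0.156).

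The 91 control spots were set apart from 41012 rat probes, of which 20932 carried 1 gene symbol and 20080 none. Symbols were updated through accessions and synonyms, and probes were averaged to 15925 genes. The main model was limma 3.58.1 (R 4.3.3, lmFit and eBayes) with a line for each of 20 sets of a material and a day. The p-values measure the scatter between these arrays. Named genes were the 12 largest rises and 8 largest falls that were monotone and called, 6 and 4 that changed only at 2.0 mg/kg, 6 and 2 changed at all doses, 3 and 3 at middle doses, the 5 smallest p for curvature, 3 and 2 for each slope difference, and up to 6 members a list, plus members needed to account for a list. Members, lists and rules were chosen with earlier results of these data known. The fits were tested on simulated data. Alternatives covered scaling, control spot factors, probes, doses, arrays left out and shape thresholds. Tables and figures used Python 3.11.15, pandas 2.3.3 and matplotlib 3.10.9.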

Additional observations from a re-analysis of the deposited data

Results flagged for a closer look

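The slopes below differed between CNF1 on day 3 and another set by a limma test of the difference itself, in log2 per mg/kg, day 3 minus the other. Against CNF1 on day 1 the differences were 2.01 ± 0.60 (SE) for Slc1a6, 1.49 ± 0.21 for Galnt5, a mucin-type glycosyltransferase gene, and 1.45 ± 0.39 for the chemokine receptor gene Cxcr6. They were -1.83 ± 0.47 for Prok2, which encodes prokineticin 2, and -1.65 ± 0.47 for the transcription factor gene Nkx6-1. Adjusted p-values for these 5 ran from 0.000115 (Galnt5) to 0.0494 (Slc1a6). Prok2 stood at -0.84, -0.37, 0.47 and 1.01 over the doses on day 1 and at 0.62, 0.85, -0.28 and -0.92 on day 3, so the order of the doses was turned. For Galnt5 the CNF1 day 3 vehicle array (-0.91) was the lowest of all vehicle arrays of the study. The CNF1 day 1 vehicle array (0.11) was the highest of them. For Cxcr6 the day 1 vehicle array (-0.73) was the lowest. What part the vehicle arrays have in these differences was not tested.

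Against CNF1 on day 7 the differences were 4.18 ± 0.76 for Orm1, 3.09 ± 0.60 for Slc1a6 and 1.84 ± 0.27 for the dopamine receptor gene Drd4. They were -1.80 ± 0.38 for Thrsp, a regulator of lipid synthesis, and -1.56 ± 0.31 for Grifin, a lens galectin gene. Adjusted p-values ran from 0.000205 (Drd4) to 0.0217 (Thrsp). The 2.0 mg/kg array of day 7 was the lowest of its set for Orm1 (-2.06) and Drd4 (-2.02). Among all vehicle arrays of the study, that of CNF1 on day 7 was the highest for Slc1a6 (0.93) and the lowest for Grifin (-0.61). Its part in these differences was not tested either.

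Against the mean of CNF2 and CNF3 on day 3 the differences were 1.34 ± 0.23 for Tmem108, 1.33 ± 0.19 for Hpx and 1.33 ± 0.27 for the cytokine gene Tnfsf15. They were -1.67 ± 0.33 for Thrsp and -1.42 ± 0.31 for Tex36. Adjusted p-values ran from 0.000101 (Hpx) to 0.0136 (Tex36). At 2.0 mg/kg the CNF2 and CNF3 arrays of day 3 stood 2.18 and 0.22 from their vehicle arrays for Tmem108, and 0.27 and -0.12 for Hpx. For Tnfsf15 they stood 0.98 and -0.68 away, for Thrsp -0.48 and 0.89, and for Tex36 -2.27 and -0.94. Tex36 also fell with CNF1 on day 7 (-2.46 at 2.0 mg/kg). None of the 15 slope differences kept its call under quantile normalization. With the 5 CNF1 sets alone all 5 differences from day 1 and 3 of the 5 from day 7 were lost, and with dose as a rank 2 of each. With control spot factors in the fit all 15 were kept.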

How the results depend on the processing

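No paired analysis was possible because each group holds 1 array. Slope calls (2460 higher, 1976 lower) were 109 and 15 after quantile normalization, 3763 and 945 with arrays centred on their medians, and 4135 and 6109 probes over single probes. They were 1474 and 1192 with the 5 CNF1 sets alone, and 3388 and 2572 with 3 factors of the control spots. The higher calls were 1485 without the vehicle array and 1587 with genes of a range of at least 1, and the lower calls 3061 with dose level terms common to all sets. Without another array of the set they numbered 1652 to 2466 higher and 1352 to 1948 lower. Curvature calls (256) were 2 after quantile normalization, 584 with 3 factors of the control spots and 496 without the common quadratic term. Slope differences from day 1 (576), day 7 (60) and CNF2 and CNF3 (220) were 0 each after quantile normalization. With the CNF1 sets alone those from day 1 and day 7 were 1 and 2, with control spot factors those from day 7 and from CNF2 and CNF3 were 401 and 974, and with dose as a rank the day 7 count was 23.

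Shape counts are given in the order monotone rises (894), monotone falls (767), higher only at 2.0 mg/kg (75), lower only there (389), past the fold at all doses (570) and middle doses only (660). A fold of 1.5 gave 1440, 1249, 648, 1209, 1732 and 2232, and a fold of 4 gave 287, 139, 0, 18, 56 and 19. Single probes gave 1535, 2882, 172, 1928, 1280 and 2236. Quantile normalization gave 342, 229, 10 and 59 for the first 4 and 434 for middle doses. Arrays centred on their medians gave 1345, 486, 485 and 168 for the first 4. Steps of at least 0.2 gave 543 rises and 374 falls. A flat range of 0.3 gave 20 and 128 only at 2.0 mg/kg and 381 at middle doses. With control spot factors regressed out, 176 were higher only at 2.0 mg/kg, 285 were past the fold at all doses and 221 were at middle doses. Against the mean of the 4 day 3 vehicle arrays, middle doses only held 993, while monotone rises were 920 and falls 598. The cause of these changes was not tested.

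For single named genes, 2963 slope values under alternatives kept their direction and side of the threshold, 387 lost the call, 102 gained one and 42 changed sign. Of 2657 values of called slopes 4 changed sign, all without the 2.0 mg/kg array: Isg15 to -0.63, Xcl1 to -0.44, Kit to 0.10 and Myct1 to 0.32. The other 38 were among 837 values of slopes that were not called, in 25 genes. Without the 2.0 mg/kg array these were Alb 0.10, Ccdc39 0.19, Cspg4 0.23, Foxp3 0.53, Il5ra 0.53, Irf7 -0.62, Mrgprg 0.86, Oas1a -0.47, Olfm4 -1.28, Per3 0.016 and Snx1, called there, -0.54. Without the vehicle array they were Ciita -0.18, Flacc1 -0.83, Mx2 0.43, Myot 0.28, Or8c10b -0.58, Pdgfrb 0.14, Pex7 0.24, RT1-DOb -0.33, Rnase1l2 -0.022, Smad4 0.13 and Tagln -0.20. Without the 0.5 mg/kg array they were Flacc1 -0.17, Mx2 0.066 and Olfm4 -0.19, and without the 1.0 mg/kg array Flacc1 -0.19 and Mx2 0.096. Arrays centred on their medians gave Etv5 0.069, Mx2 0.14, Pdgfrb 0.053, Rgs5 0.0089 and Slc34a2 0.0041, and quantile normalization Cspg4 0.034, Etv5 0.060 and Slc34a2 0.053. Control spot factors gave Mx2 0.022, dose as a rank Olfm4 -0.022, and log2(dose + 0.5) Olfm4 -0.13.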
